A study of Mus musculus with 4 samples.

Results

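The late-numbered miRNA entries are the mouse miRNAs whose miRBase number is 3000 or above, taken here from a table of known mature miRNAs in exosomes of colon carcinoma cells. The number, read as the first run of digits in the name, was the whole rule, and no measured value entered it. Of the 795 entries listed, 261 were late-numbered and 534 were earlier, let-7 included. By number, 65 were in the 3000s, 20 in the 5000s, 79 in the 6000s, 81 in the 7000s and 16 in the 8000s.

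Exosomes are small vesicles that cells release into their medium. They came from C26 and MC38, 2 mouse colon carcinoma lines grown, per the labels, in medium free of exosomes. Each line gave 1 library isolated with ExoQuick-TC, a reagent that precipitates vesicles, and 1 isolated with a Wako exosome capture ELISA kit, which binds them. Libraries are named below by kit and line. No condition was replicated, and nothing in the labels shows that separate cultures were used. The p-values therefore cover only the spread among the 4 libraries, and that spread may be technical.

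MicroRNAs are short RNAs that guide Argonaute proteins to messenger RNAs, mainly through the seed, bases 2 to 8. They are usually cut from a hairpin by Drosha and then by Dicer, and the 5p and 3p products are the strands from the hairpin's left and right arm. miRBase numbers follow the order of registration, so high numbers are mostly entries from deep sequencing, many of them rare and some with weak support as true miRNAs. Some are mirtrons, hairpins whose ends are set by the splicing of a short intron in place of a cut by Drosha.

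The sequences below are those of the entries with most reads and of the sets that the results return to. All are mature RNA sequences from RefSeq on GRCm38.p6, written 5′ to 3′, with the seed in capitals. RefSeq's table held a sequence for 224 of the 261 late entries and for 426 of the 534 earlier ones. miR-3960 and miR-5099 were among those without one.
miR-5100: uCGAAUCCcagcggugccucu
miR-3968: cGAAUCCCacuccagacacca
miR-3963: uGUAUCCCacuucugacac
miR-3102-5p: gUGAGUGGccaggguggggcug
miR-3102-5p.2-5p: gGUGGUGCaggcaggagagcc
miR-3102-3p.2-3p: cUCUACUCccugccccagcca
miR-3102-3p: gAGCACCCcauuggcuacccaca
miR-3473a: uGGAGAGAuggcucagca
miR-3473b: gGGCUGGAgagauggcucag
miR-3473e: gGGCUGGAgagauggcucgua
miR-3473d: cCACUGAGccacuuuccagcccuu
miR-5128: cAAUUGGGgcuggcgagauggcu
miR-7667-5p: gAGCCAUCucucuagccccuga
miR-6963-3p: uGCCUCUUgccuccaucccacag
miR-7012-3p: uGACCUGUggcuccucucccag
miR-7070-3p: cAGGCUCUccuucccuccag
miR-6538: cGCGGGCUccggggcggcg
miR-3474: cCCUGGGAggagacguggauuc

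miR-5100 (chr11:60728698-60728718, plus strand) lies in an intron of Mief2. miR-3968 (chr11:115447969-115447989, minus strand) and miR-3963 (chr3:151023839-151023857, minus strand) lie in no annotated gene on their strand. miR-5100 and miR-3968 shared the 9 bases CGAAUCCCA, which, searched on both strands, no other late sequence and none of the 426 earlier ones held. In RefSeq promoters of 300 bases the same 9 bases were found in 0.103% of 32851. miR-3968 and miR-3963 shared the 8 bases AUCCCACU, which overlap that motif. The 9 bases GAGAUGGCU were held by miR-3473a, miR-3473b, miR-3473e and miR-5128 on their own strand and by miR-7667-5p on the opposite strand, by 0 of the 426 earlier sequences and by 0.874% of the promoters. miR-3473b and miR-3473e shared 18 bases in a row and the seed GGCUGGA, so reads shortened at the 3′ end could fall to either of them. Both 9-base motifs were read off late entries that hold them, so their presence there was fixed in advance. A promoter of 300 bases is far longer than a mature miRNA, so its rate is no background for one.

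The libraries differed widely in the total reads that their values were scaled to, as recovered from the values. These ran from 3867 reads for Wako MC38 over 33692 for Wako C26 and 340643 for ExoQuick MC38 to 1356801 for ExoQuick C26. Such totals need not be all reads sequenced, and they do not give the sequencing depth. Values are RPM, reads relative to these totals, scaled as RPM, so 1 read was worth 0.737 RPM in ExoQuick C26, 29.7 in Wako C26, 2.94 in ExoQuick MC38 and 259 in Wako MC38. Where a library had 0 reads, the level could still be up to 2.21, 89.0, 8.81 and 776 RPM in that order, the worth of 3 counts. Of colon and gut epithelium markers 2 of 3 were listed, and of the 7 epithelium markers of the miR-200, miR-203 and miR-205 kind 1 was listed, at 8.84 RPM in ExoQuick C26 and 5.87 RPM in ExoQuick MC38. All 4 mesenchymal markers were listed, and their sum was 128228 RPM in ExoQuick C26, 63042 in Wako C26, 2437 in ExoQuick MC38 and 41893 in Wako MC38. Wako MC38, labelled as MC38, thus stood nearer to the C26 libraries in these markers than to ExoQuick MC38. In bulk exosome RNA, fewer vesicles carrying a miRNA and less of it per vesicle cannot be told apart.

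Late-numbered entries held few of the reads, and a larger share in the Wako libraries. Shares are of listed reads, the sum over all entries, which exceeds the recovered total in each library (3953 against 3867 in Wako MC38), so some reads stand under more than 1 entry. They took 1798 of the 1434877 listed reads in ExoQuick C26, 0.125% (exact 95% interval 0.120 to 0.131). In Wako C26 they took 385 of 34877, 1.10% (0.997 to 1.22). In ExoQuick MC38 they took 414 of 347527, 0.119% (0.108 to 0.131), and in Wako MC38 21 of 3953, 0.531% (0.329 to 0.811). Both Wako shares lay above both ExoQuick shares, and the intervals of the 2 ExoQuick libraries overlapped. Intervals here and below are exact (Clopper-Pearson for shares) and cover counting error only.

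**Figure D1:**
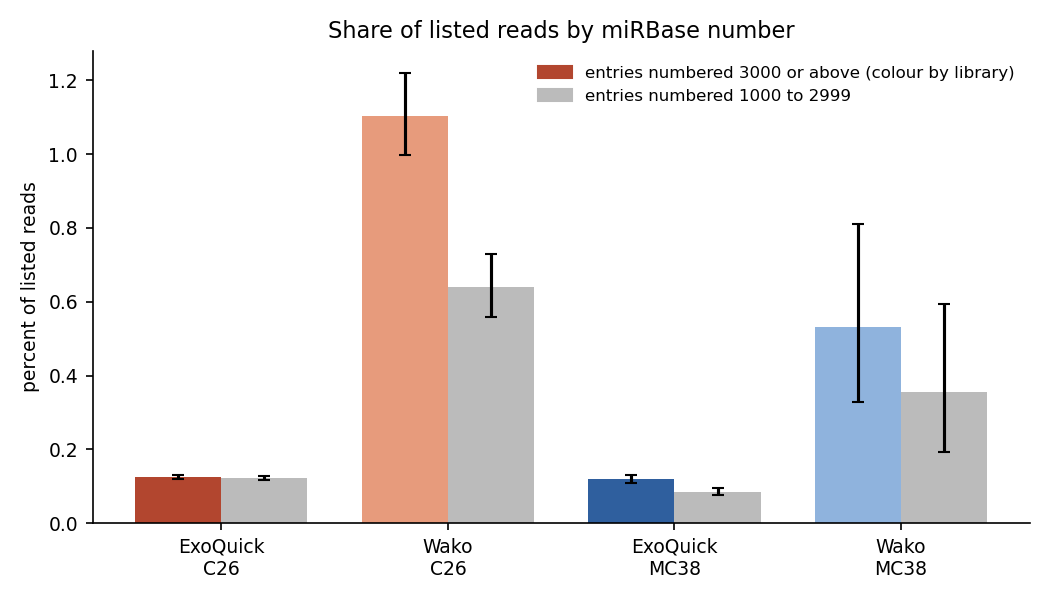
Percent of listed reads (y axis, linear, from 0) in each library (x axis) for entries numbered 3000 or above (coloured) and for entries numbered from 1000 to below 3000 (grey); bars are single libraries and whiskers exact 95% intervals for counting error. The coloured bars stand at 0.125% and 0.119% in the ExoQuick libraries and at 1.10% and 0.531% in the Wako libraries.

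Summed, the late entries stood at 1325 RPM in ExoQuick C26, 11427 in Wako C26, 1216 in ExoQuick MC38 and 5431 in Wako MC38. Wako against ExoQuick was 8.62-fold in C26 (interval 7.70 to 9.63) and 4.47-fold in MC38 (2.74 to 6.92). C26 against MC38 was 1.09-fold with ExoQuick (0.979 to 1.22) and 2.10-fold with Wako (1.36 to 3.44). For the earlier entries together the kit ratio was 0.969 in C26 and 0.998 in MC38, as they make up nearly the whole of each library. Entries numbered from 1000 to below 3000 had kit ratios of 5.11 (4.43 to 5.88) and 4.17 (2.25 to 7.10), so a ratio above 1 did not begin at 3000. The entry next below the limit was miR-2137, at 0, 59.4, 2.94 and 259 RPM in ExoQuick C26, Wako C26, ExoQuick MC38 and Wako MC38, and before it came the more abundant miR-1983, at 952, 4155, 197 and 1293 RPM. Next above the limit were miR-3057-5p, at 4.42, 29.7, 23.5 and 0 RPM, and miR-3057-3p, at 0.74, 0, 2.94 and 0 RPM. The summed level of 5 blood cell miRNAs moved the same way, with 80.3 RPM in ExoQuick C26, 3502 in Wako C26, 47.0 in ExoQuick MC38 and 1810 in Wako MC38, while miR-122-5p, a liver and serum miRNA, stood at 413, 59.4, 746 and 259 RPM in that order. Their part in the late entries' kit ratio was not tested.

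A few hairpins set part of these sums. Without miR-5100 and the miR-3102 products, an alternative chosen after seeing the data, the kit ratio was 8.38 (7.21 to 9.71) in C26 and 3.86 (2.26 to 6.17) in MC38. The line ratio with ExoQuick then turned from 1.09 to 0.640 (0.570 to 0.719), with the late entries lower in C26. With Wako it was 1.39 (0.859 to 2.39). For entries numbered from 1000 to below 3000 the line ratio with ExoQuick turned likewise when miR-1983 was left out. It went from 1.49 (1.32 to 1.69) to 0.511 (0.435 to 0.601), and their kit ratio in C26 was then 7.17 (5.61 to 9.08). The lower level in C26 was thus not particular to the late entries. The kit ratio in C26 was 7.19 for the 3000s (6.15 to 8.38), 20.2 for the 5000s (16.1 to 25.2, and 6.63 without miR-5100, which held 83 of the 122 Wako C26 reads), 5.78 for the 6000s (3.71 to 8.69), 6.28 for the 7000s (4.24 to 9.04) and 4.38 for the 8000s (1.36 to 10.97). In MC38, where the Wako library had 13 late reads in the 3000s and at most 4 in any other band, it was 8.48 for the 3000s (4.40 to 15.0), 3.15 for the 5000s (0.636 to 9.51), 0.881 for the 6000s (0.0221 to 5.02) and 4.004 for the 7000s (1.07 to 10.6), and 0 of the 8000s' reads were in Wako MC38. The intervals of the 5000s and 6000s spanned 1. The line ratio with ExoQuick was 2.05 for the 3000s, and 0.681 (0.556 to 0.838) for the 3000s without the miR-3102 products. It was 0.726 for the 5000s (0.565 to 0.942), 0.472 for the 6000s (0.368 to 0.608), 0.622 for the 7000s (0.483 to 0.806) and 1.65 for the 8000s (0.740 to 4.33).

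Most late entries were seen in only 1 library and by few reads. Reads were found for 197 of the 261 in ExoQuick C26 (75.5%), 69 in Wako C26 (26.4%), 113 in ExoQuick MC38 (43.3%) and 13 in Wako MC38 (4.98%). Of the 534 earlier entries 91.8%, 63.3%, 67.8% and 32.8% had reads in the same order. Detection in the late entries followed depth, and it was lower than in the earlier entries in each library. In 1 library only were 163 late entries (62.5%), against 135 earlier ones (25.3%). In all 4 libraries were 7 late entries (2.68%), against 159 earlier ones (29.8%). These 7 were miR-3102-5p.2-5p, miR-3102-3p.2-3p, miR-3473b, miR-3473d, miR-3473e, miR-3960 and miR-3968.

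Of the 163 entries seen in 1 library, 102 were seen in ExoQuick C26, 64 of them by 1 read. In Wako C26 there were 24, in ExoQuick MC38 36 and in Wako MC38 1, miR-5129-3p, seen by a single read. Over the whole series 104 late entries (39.8%) rested on 1 read and 221 (84.7%) on fewer than 10, against 11.6% and 34.8% of the earlier entries. The table lists no entry without reads, so its late entries are those caught at least once: of 872 late mature miRNAs with a RefSeq sequence, 224 were listed (25.7%), and of 807 earlier ones 426 (52.8%). With all libraries thinned to the 3953 listed reads of the shallowest, 4.10 late entries were expected in ExoQuick C26, 20.9 in Wako C26, 4.45 in ExoQuick MC38 and 13 in Wako MC38. At equal depth the Wako libraries thus held more late entries, the reverse of the counts at full depth. Of the earlier entries 142, 195, 129 and 175 were expected in the same order, so the Wako libraries held more of these too. Late entries were then 2.80%, 9.66%, 3.34% and 6.91% of the entries detected.

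The level of a late entry was low even where it was detected. The median detected late entry had 2 reads in ExoQuick C26, 2 in Wako C26, 2 in ExoQuick MC38 and 1 in Wako MC38, and the median earlier one had 25, 7, 17 and 3. The mean over the 4 libraries had a median of 0.923 RPM over the late entries (range 0.185 to 682) and of 33.1 RPM over the earlier ones (0.185 to 219565). No late entry reached a mean of 1000 RPM, which 76 earlier ones did (14.2%). The late entry with the highest mean, miR-5100, ranked 88 of 795. Only 50 late entries (19.2%) reached the mean of 10 RPM needed for the tests, against 340 earlier ones (63.7%), and 1 read in Wako MC38 is enough to reach it.

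**Figure D2:**
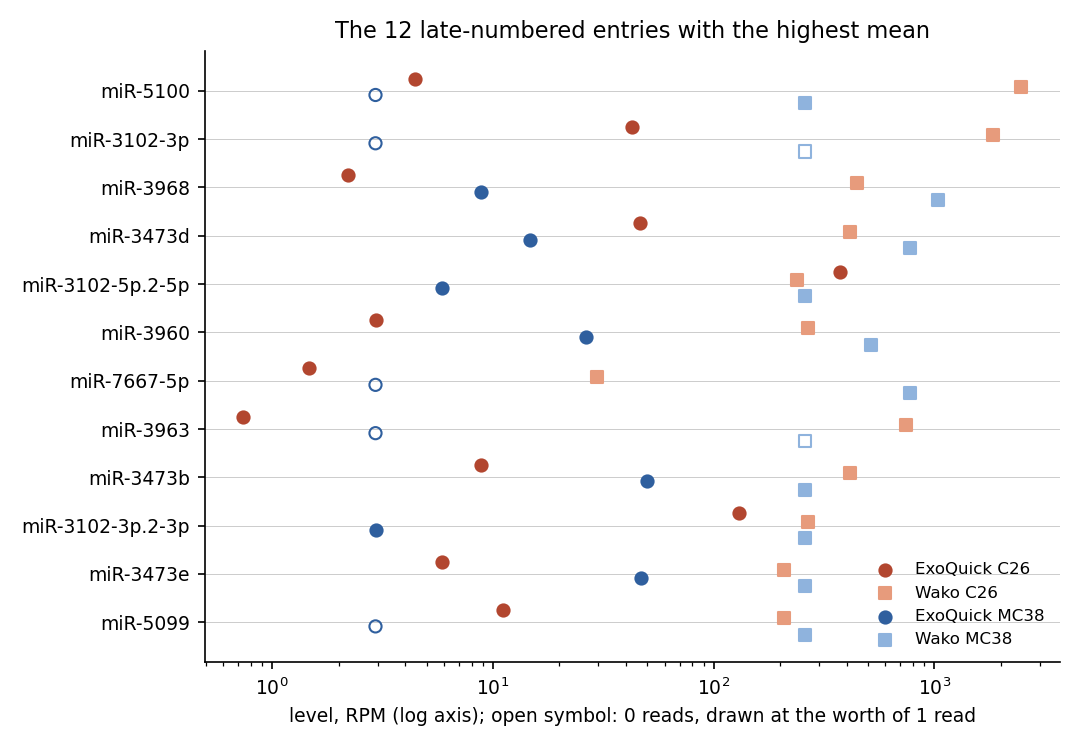
Level in RPM (x axis, log scale) of the 12 late-numbered entries with the highest mean (y axis), 1 point per library; circles are ExoQuick, squares Wako, and open symbols mark 0 reads, drawn at the worth of 1 read. In 11 of the 12 rows the Wako C26 square stands right of the ExoQuick C26 circle, the exception being miR-3102-5p.2-5p at 373 and 237 RPM. The mean gives most weight to Wako reads, as 1 read is worth more RPM there. The choice of the 12 thus favours entries high with Wako, and the count of 11 does not measure a kit difference.

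miR-5100 was the late entry with most reads in Wako C26. It stood at 4.42 RPM in ExoQuick C26 (6 reads), 2463 in Wako C26 (83 reads), 0 in ExoQuick MC38 and 259 in Wako MC38 (1 read). It was thus high in 1 library, and the Wako library was above the ExoQuick library in both lines. The kit ratio in C26 was 557 (interval 245 to 1562).

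miR-3968, the late entry with most reads in Wako MC38, stood at 2.21, 445, 8.81 and 1034 RPM (3, 15, 3 and 4 reads) in ExoQuick C26, Wako C26, ExoQuick MC38 and Wako MC38. Its kit ratio was 201 in C26 (57.0 to 1085) and 117 in MC38 (19.9 to 802), and the levels of the 2 kits did not overlap. miR-3963, which shares 8 bases with it, had 1 read in ExoQuick C26 and 25 in Wako C26 (0.740 and 742 RPM), and 0 in both MC38 libraries. Together miR-5100, miR-3968 and miR-3963 held 0.556% of the late reads in ExoQuick C26, 31.9% in Wako C26, 0.725% in ExoQuick MC38 and 23.8% in Wako MC38. Targets and roles of these 3 entries are not given here.

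The 4 products of Mir3102 lie in 1 short intron, an adjoining pair in each arm. The 104-base intron of Arhgef17 runs over chr7:100882306-100882409 on the minus strand. miR-3102-5p starts at the intron's first base, and miR-3102-5p.2-5p follows it 22 bases in. miR-3102-3p.2-3p and miR-3102-3p follow on the other arm, and miR-3102-3p ends 1 base before the intron does. The 2 outermost products are thus those that splicing would bound, and the inner pair lies next to them.

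The products took 745 reads in ExoQuick C26, 84 in Wako C26, 3 in ExoQuick MC38 and 2 in Wako MC38. C26 against MC38 was 62.3-fold with ExoQuick (21.3 to 303) and 4.82-fold with Wako (1.29 to 40.5). In ExoQuick C26, miR-3102-5p.2-5p held 67.9% of the hairpin's reads (506), miR-3102-3p.2-3p 23.6%, miR-3102-3p 7.79% and miR-3102-5p 0.671%. In Wako C26 the same products held 9.52% (8 reads), 10.7%, 73.8% and 5.95%. The inner pair led with ExoQuick and the outer pair with Wako. The outer pair had 63 reads in ExoQuick C26 and 67 in Wako C26, a kit ratio of 42.8 (29.9 to 61.4). The inner pair had 682 and 17 reads, a ratio of 1.004 (0.581 to 1.62). Both MC38 libraries had reads of the inner pair only, 3 and 2.

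**Figure D3:**
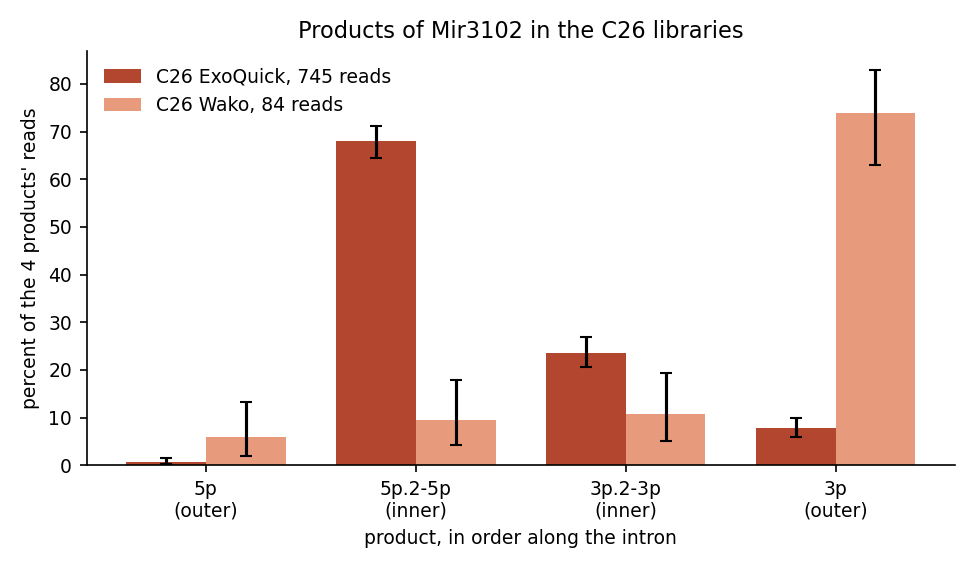
Percent of the 4 Mir3102 products' reads (y axis, linear, from 0) held by each product (x axis, in order along the intron) in ExoQuick C26 (dark, 745 reads) and Wako C26 (light, 84 reads); whiskers are exact 95% intervals for counting error. miR-3102-5p.2-5p holds 67.9% of the dark bars and miR-3102-3p 73.8% of the light ones.

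The miR-3473 entries form a group by name and, in part, by sequence. miR-3473b (chr10:41670774-41670793, plus strand) stood at 8.84, 416, 49.9 and 259 RPM (12, 14, 17 and 1 reads) in ExoQuick C26, Wako C26, ExoQuick MC38 and Wako MC38. miR-3473e (chr5:31667296-31667316, minus strand, intron of Rbks) stood at 5.90, 208, 47.0 and 259 RPM. Both were lower in C26 than in MC38 with ExoQuick. miR-3473d (chr8:111016498-111016521, minus strand, intron of Ddx19b), which has another seed, stood at 46.4, 416, 14.7 and 776 RPM (63, 14, 5 and 3 reads) and was higher in C26 with ExoQuick, 3.16-fold (1.29 to 10.1).

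The 7 miR-3473 entries together took 5.90%, 10.9%, 11.1% and 23.8% of the late reads in ExoQuick C26, Wako C26, ExoQuick MC38 and Wako MC38. Their kit ratio was 16.0 in C26 (10.9 to 23.0) and 9.57 in MC38 (2.97 to 24.0). Exact copies of some of these sequences stood in many transcripts of the GENCODE M21 annotation. miR-3473b was found in transcripts of 343 genes on the sense strand and 390 on the antisense strand, miR-3473a in 146 and 135, and miR-3470b in 546 and 497. These 3 late sequences and 1 earlier one were found in 10 or more genes on the sense strand, so their reads cannot be assigned to the named hairpin alone. miR-7667-5p, which holds the reverse complement of GAGAUGGCU, stood at 1.47, 29.7, 0 and 776 RPM (2, 1, 0 and 3 reads).

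Others of the 12 were miR-3960, at 2.95, 267, 26.4 and 517 RPM (4, 9, 9 and 2 reads), and miR-5099, at 11.1, 208, 0 and 259 RPM (15, 7, 0 and 1 reads). miR-3960 was higher with Wako in both lines and lower in C26 than in MC38 with ExoQuick, a ratio of 0.112 (0.0251 to 0.400).

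Some entries went the other way, with reads in the ExoQuick libraries only. miR-6538, the late entry with most reads in ExoQuick MC38, had 17 reads in ExoQuick C26 and 29 in ExoQuick MC38 (12.5 and 85.1 RPM) and 0 in both Wako libraries. miR-3474 had 36 and 26 reads and miR-6960-5p 27 and 15, again with 0 in both Wako libraries. A count of 0 in Wako C26 allows up to 89.0 RPM, above all of these ExoQuick levels in C26, so no difference between the kits was detectable for them at this depth. miR-6538 (chr12:26414970-26414988, minus strand, intron of Rnf144a) is 94.7% G and C.

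The line and the kit were each tested over all 4 libraries with limma on log2(RPM + 1), with the other factor as an additive term, over the 390 entries with a mean of at least 10 RPM. For C26 against MC38, 13 of the 390 passed an adjusted p of 0.05 (3.33%), and 46 had an unadjusted p under 0.05 (11.8%). Of the 50 late entries tested, 0 passed and 0 had an unadjusted p under 0.05. With edgeR's quasi-likelihood test on recovered reads 1 late entry passed, miR-3102-3p (adjusted p = 0.0323), where 4.87% of all entries did. That entry had 0 reads in both MC38 libraries and reached the mean of 10 RPM only through C26 values. Its direction was therefore set in part by the filter. With DESeq2 0 late entries passed, against 3.85% of all, though some late entries, miR-3095-3p among them, got no adjusted p. In the limma fit miR-3102-3p had a log2 difference of 8.15 (SE 4.25, adjusted p = 0.445), from 42.8 and 1840 RPM in ExoQuick C26 and Wako C26 and 0 in both MC38 libraries. Its reads of 58 and 62 put C26 at least 4.85-fold higher with ExoQuick and at least 2.37-fold higher with Wako, against the floor of 3 counts in each MC38 library.

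The other large fitted line differences did not pass either. Higher in C26 were miR-3095-3p (log2 5.18), miR-3963 (5.17), miR-8114 (4.84) and miR-3102-5p (4.73), each with 0 reads in both MC38 libraries. All of these reached the mean needed for the tests only through C26 values, so their direction was set in part by the filter. miR-3095-3p rested on 57 reads in ExoQuick C26 and 1 in Wako C26. Higher in MC38 were miR-7016-5p (log2 −4.999), miR-5129-3p (−4.01), miR-3960 (−1.87), miR-7667-5p (−1.68) and miR-5110 (−1.68). The first of these rested on 2 reads, 1 in each MC38 library, and the second on 1. Both reached the mean needed for the tests only through MC38 values. The median log2 difference was 2.83 over the 50 late entries and 1.85 over all 390, and after quantile normalization it was −0.05 over both, so its sign depends on the scaling. With no filter it was 0.40 over the 261 late entries and 0.42 over all 795, so its size depends on the filter too.

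For Wako against ExoQuick, 21 of the 390 entries passed in limma (5.38%), and 53 had an unadjusted p under 0.05 (13.6%). Of the late entries 0 passed, and 3 had an unadjusted p under 0.05, all of them higher with Wako. These were miR-5100 (log2 8.42, SE 3.15, adjusted p = 0.105 in limma), miR-3968 (log2 6.92, SE 2.66, adjusted p = 0.126 in limma) and miR-3473d (log2 4.38, SE 1.89, adjusted p = 0.211 in limma). With edgeR 3 late entries passed, miR-5100 (adjusted p = 0.000216), miR-3968 (0.0104) and miR-3963 (0.0147), where 1.79% of all entries did. With DESeq2, miR-5100 (adjusted p = 4.48e-05) and miR-3968 (0.00655) passed, where 4.1% of all entries did. That share is over all 390, and DESeq2 gave some of them no adjusted p. miR-3963 was among these (unadjusted p = 0.00315 in DESeq2), so it did not fail there. With median-ratio size factors or quantile normalization 0 of the 390 entries passed in limma. Of the 50 late entries tested, 35 reached the mean of 10 RPM only through their Wako values, so the median of their kit differences, 2.53 in log2 (0.44 over all 390), was set in part by the filter and is no measure of the late entries. With no filter the median was −0.65 over the 261 late entries and −0.40 over all 795. miR-5100, miR-3968 and miR-3963 were among the 35, so they could enter the kit test only through high Wako values. Their direction in limma, edgeR and DESeq2 was therefore set in part by the filter.

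Next highest in the fitted kit difference, none of them past the threshold, were miR-7667-5p (log2 6.62), miR-5099 (6.07) and miR-6946-5p (5.37). Most negative were miR-3474 (−5.53), miR-6538 (−5.09), miR-6960-5p (−4.94), miR-5110 (−3.91) and miR-7068-5p (−2.57). Of these 5, only miR-7068-5p, in an intron of Cherp, had reads in a Wako library (2 in Wako C26, against 52 in ExoQuick C26 and 18 in ExoQuick MC38). Per depth miR-7068-5p was not lower with Wako in C26, at 59.4 RPM against 38.3, a ratio of 1.55 (0.183 to 5.88). Its negative fit came from 0 reads in Wako MC38, which allow up to 776 RPM, against 52.8 RPM in ExoQuick MC38.

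The arms of the late entries were unequal. By name, 142 late entries were 5p, 75 were 3p and 44 named no arm, against 247, 241 and 46 of the earlier entries. Of the late entries with reads and a named arm, 3p made up 32.5% in ExoQuick C26 (interval 25.3 to 40.3), 44.9% in Wako C26 (30.7 to 59.8), 24.4% in ExoQuick MC38 (16.0 to 34.6) and 33.3% in Wako MC38, there 2 of 6. Of the earlier entries it was 48.8%, 48.6%, 49.4% and 46.6%. The intervals lay apart in the ExoQuick libraries and overlapped in the Wako libraries.

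By reads, and with Mir3102 left out, the 3p arm held 36.0% of the late reads with an arm in ExoQuick C26 (32.2 to 40.0), 47.3% in Wako C26 (35.6 to 59.3), 20.5% in ExoQuick MC38 (15.2 to 26.6) and 16.7% in Wako MC38, there 1 of 6 reads. In the earlier entries it held 75.7%, 46.1%, 80.7% and 52.1%. Late reads thus leaned to 5p in both ExoQuick libraries, where the earlier reads leaned to 3p. Both arms were listed for 41 late hairpins and 174 earlier ones.

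**Figure D4:**
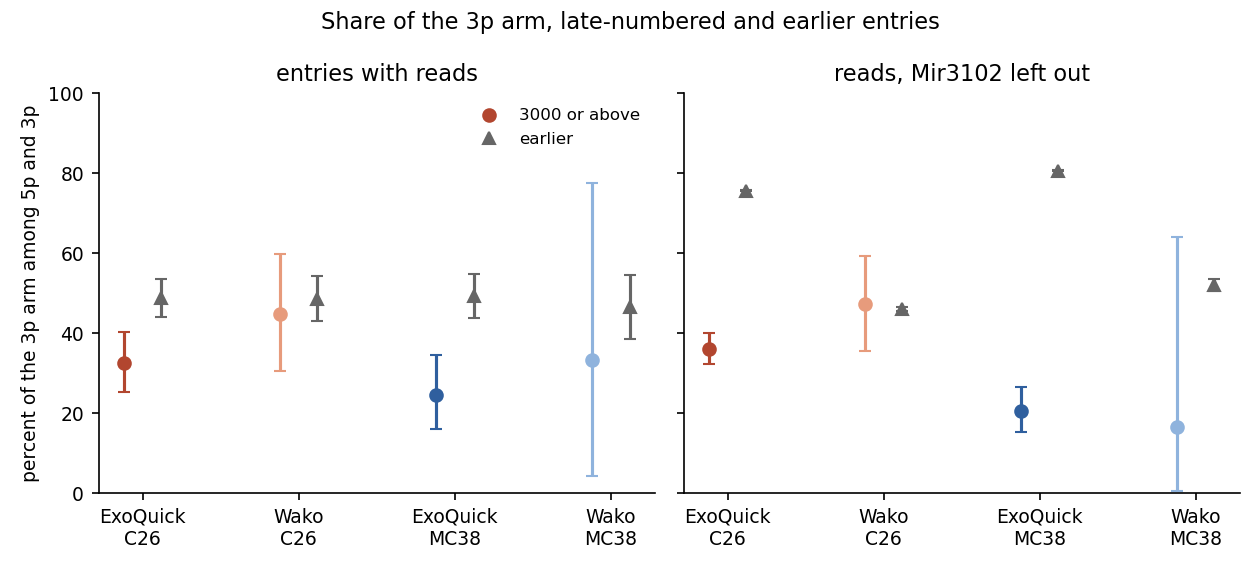
Percent of 3p among 5p and 3p (y axis, linear) by library (x axis), for entries with reads (left) and for reads without Mir3102 (right); circles are entries numbered 3000 or above, triangles earlier entries, and whiskers exact 95% intervals for counting error. In ExoQuick MC38 the circles stand at 24.4% of entries and 20.5% of reads and the triangles at 49.4% and 80.7%.

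The late entries differed from the earlier ones in sequence and in place. Their median GC content was 57.1% (quartiles 52.2 and 63.6), against 47.8% (40.9 and 57.1) for the earlier entries, and both had a median length of 22 bases. Entries numbered from 1000 to below 3000 had a median of 59.1%, above that of the late ones. A seed shared with another listed entry was found for 30 of 224 late sequences (13.4%) and for 140 of 426 earlier ones (32.9%). In the band from 1000 to below 3000 it was 8.89%, below the late entries, and 71.1% of that band lay in an intron. In an intron on their strand lay 181 late entries (80.8%) and 231 earlier ones (54.2%), among them all 65 of the 6000s that had a sequence and a position. No late sequence was identical to that of another listed entry.

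At a spliced edge of an intron, within 3 bases, lay 38 late entries (16.96%), 10 of them 5p and 28 of them 3p, and 11 earlier ones (2.58%). The earlier ones included 5 of the 45 sequences numbered from 1000 to below 3000 (11.1%), so this place was not particular to the late numbers. Late 5p entries at an edge are taken below as at an intron start, and 3p entries as at an intron end, from the arm in the name. The 28 late 3p entries at an intron end had 83 reads in ExoQuick C26, 86 in Wako C26, 8 in ExoQuick MC38 and 0 in Wako MC38. Without miR-3102-3p, 27 entries remained, with 25 reads in ExoQuick C26 and 24 in Wako C26, a kit ratio of 38.7 (21.1 to 70.6). The 33 late 3p entries placed elsewhere, Mir3102 again left out, had 156 and 5 reads, a ratio of 1.29 (0.413 to 3.08). The intervals of these 2 sets lay apart. Late 5p entries had ratios of 5.75 at an intron start (2.52 to 11.6, 63 and 9 reads) and 3.96 elsewhere (2.52 to 5.99), and the 44 entries with no arm 20.9 (17.7 to 24.6). Of the reads with no arm, miR-5100, miR-3968 and miR-3963 held 123 of 227 in Wako C26 and 10 of 437 in ExoQuick C26. In MC38 the late intron-end entries had 8 reads with ExoQuick and 0 with Wako, a ratio whose interval reaches from 0 to 51.6.

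The split by intron edge was made after these data were seen, and no test was run on it. The reads were spread thinly: miR-6963-3p (chr15:103350455-103350477, minus strand), at the end of an intron of Itga5, the integrin alpha 5 gene, had 0 reads in ExoQuick C26 and 5 in Wako C26. miR-7012-3p (intron of Dennd4b) had 0 and 3, and miR-7070-3p (intron of Fbxw9) had 4 and 4. These 3 were named after their values were seen, as those with most Wako C26 reads in the set after miR-3102-3p. The printed sequences of miR-6963-3p, miR-7012-3p and miR-7070-3p end in AG, the letters that close most introns. The 6 earlier 3p entries at an intron end also had more reads per depth in Wako C26, with 31 and 19 reads and a ratio of 24.7 (13.2 to 45.1), and in MC38 4 and 4 reads and a ratio of 88.1 (16.4 to 473). The C26 ratio stood against 0.558 (0.549 to 0.567) for the 189 earlier 3p entries elsewhere. The high kit ratio at intron ends was therefore not particular to the late numbers.

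**Figure D5:**
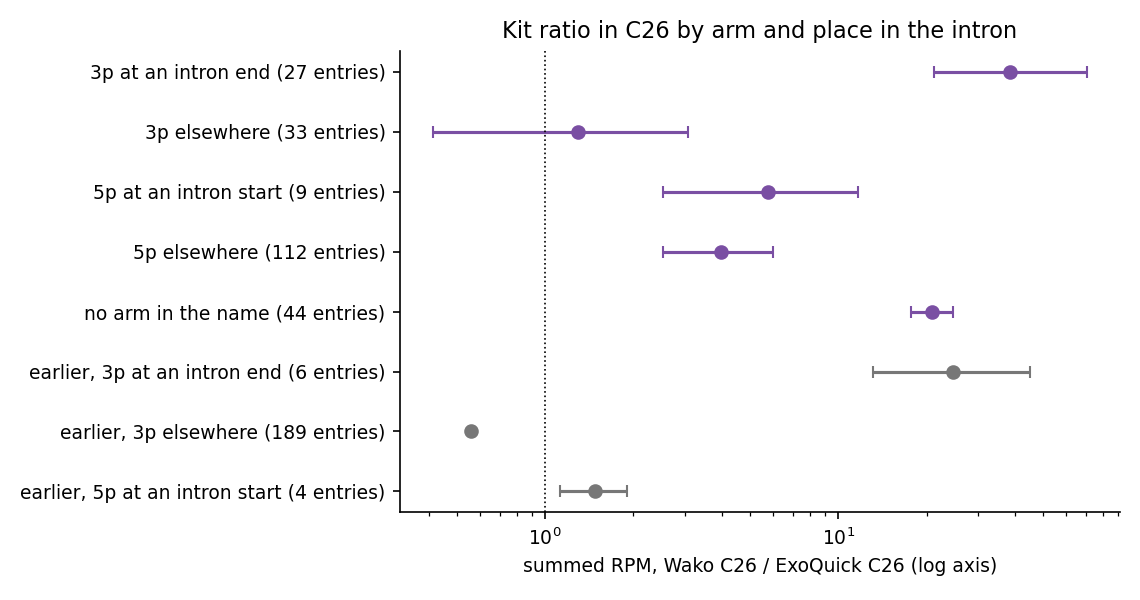
Ratio of summed RPM, Wako C26 to ExoQuick C26 (x axis, log scale), for late-numbered entries (purple) and earlier ones (grey) by arm and place in the intron (y axis), with exact 95% intervals for counting error; the Mir3102 products are left out. The 3p sets at an intron end stand at 38.7 and 24.7, and the 3p sets elsewhere at 1.29 and 0.558.

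miR-3074-5p and miR-3065-5p, outside the rule for named entries and picked with their values known, lie opposite an earlier entry; others were not searched for. miR-3074-5p overlaps miR-24-3p by 20 bases on the other strand, and had 3 reads in ExoQuick C26 and 0 in the other libraries, where miR-24-3p had 54258, 890, 9261 and 97 reads. Counting by strand is not stated for the deposited table. miR-3065-5p, which overlaps miR-338-3p by 21 bases, had 1 read in all, and miR-338-3p had 2, 0, 12 and 0.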

How the data were processed

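Small RNA of exosomes was sequenced in 4 libraries. The authors deposited 1 table of normalized signal values for 795 mature miRNAs. The submitters' processing notes list DESeq2, without its role or version. For the aligner, counter and miRBase release the sources used here give nothing. Among the values of each library, 100% of the values were whole multiples of the worth of 1 read (tolerance 0.006), so values were read as RPM and whole reads were recovered. Members and lists were chosen with earlier results of these data known.

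limma 3.58.1 (R 4.3.3) was fitted on log2(value + 1), with a trend of variance on mean, over the 390 entries with a mean of at least 10, line and kit as additive terms, with Benjamini-Hochberg adjustment over all 390 and two-sided p-values. With 1 residual degree of freedom per entry the spread comes mainly from the trend, and fitted differences of entries with 0 reads depend on the pseudocount. edgeR 4.0.16 and DESeq2 1.42.0 were run on the recovered reads as alternatives, and the fits were tested on simulated data. Ratios of reads carry exact conditional binomial 95% intervals, shares Clopper-Pearson ones. No molecular identifiers are stated, so reads do not count independent molecules.

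Named entries were the 12 with the highest mean, those past a threshold, the top entry of each library, the 5 largest fitted differences in each direction, those in all 4 libraries and neighbours of the limit at 3000. Entries with a profile identical to another (203 late ones, nearly all with few reads) are given as a count. Sequences and positions are RefSeq's (GRCm38.p6), introns and transcripts GENCODE M21's on GRCm38.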

Additional observations from a re-analysis of the deposited data

How the results depend on the processing

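The count of late entries past the threshold in the line comparison, 0 in the limma fit, was 1 with edgeR, and leaving out each library in turn gave 0 to 18 (18 without ExoQuick C26, 11 without Wako C26). In the kit comparison the count of late entries was 1 with a pseudocount of 10, where 23 of all 390 passed. With a mean of at least 1 it was also 1, where 16 of 573 passed, and miR-5100 was the entry in both. The count was 3 with edgeR, where 7 of all 390 passed, and 2 with DESeq2, where 16 did. Leaving out each library, the median kit difference over the 50 late entries ran from −0.53 in log2 (without Wako C26) to 4.30 (without Wako MC38). Where a library is left out, the lone library is assumed to vary like the others, and pairs of libraries with 0 reads have no spread of their own. These fits carried no term for the other factor, so line and kit are partly mixed in them. No count of calls is given from them. No paired analysis was possible because each line and kit has 1 library, and the kit is already a term in the main fit.

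With numbers of 5000 or above, the share of listed reads was 0.0484% in ExoQuick C26, 0.539% in Wako C26, 0.0803% in ExoQuick MC38 and 0.202% in Wako MC38, 6 entries had reads in Wako MC38, the line ratio with ExoQuick was 0.625 and the kit ratios were 10.9 in C26 and 2.53 in MC38. With identical profiles counted once, the share was 0.111% in ExoQuick C26 and 0.0905% in ExoQuick MC38, and 57, 39 and 46 entries had reads in ExoQuick C26, Wako C26 and ExoQuick MC38. Without the top entry of each library, the share was 0.0900% in ExoQuick C26 and 0.866% in Wako C26, and the line ratio with ExoQuick was 0.836. Without miR-5100 and the miR-3102 products the values were 0.0730%, 0.625% and 0.640. At least 3 reads were found for 77, 22, 34 and 3 entries in ExoQuick C26, Wako C26, ExoQuick MC38 and Wako MC38, and thinning left 4.10, 20.9 and 4.45 in the first 3. Of the alternatives run, 65 kept the value within a range or the side of the threshold, 26 moved a value and 9 added calls, some with a library left out. For shares and ratios the range was the main interval, and for detection counts a limited fold change. A fall from 69 to 46 entries in Wako C26, at numbers of 5000 or above, thus counted as kept. So did the line ratio with Wako at 1.39 (0.859 to 2.39), without miR-5100 and the miR-3102 products, though that interval spans 1. With 0 late entries called, no called direction could turn.

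In Wako MC38 1 read is worth 259 RPM, and no late entry there has more than 4 reads.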
